A study of Mus musculus with 31 samples.

Results

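The genes described here encode the antigen-presenting molecules of the major histocompatibility complex (MHC) and their partners, and they were examined in brain, liver, spleen and thymus of Dll1 mutant mice. They were listed as 10 genes, 5 of the class II pathway (Cd74, H2-Aa, H2-Ab1, H2-Eb1 and H2-DMa) and 5 of the class I pathway (H2-K1, H2-D1, H2-T23, B2m and Tap1). Of these, 8 had at least 1 row among the 9026 named genes of the array, and they held 11 of its 20794 rows. H2-Aa and H2-D1 had no row. Cd74 had 3 rows, H2-T23 had 2, and each of the other 6 genes had 1. Cd74 lies on mouse chromosome 18 and B2m on chromosome 2, while the other 8 listed genes lie on chromosome 17. Dll1 itself is on chromosome 17, and these ratios do not show which strain the chromosome segments around the mutation come from.

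Dll1 encodes a ligand of the Notch receptors, and the study asked how its mutation alters gene expression in adult organs. The labels give 4 male mice of the Dll1 mutant line, aged 17 weeks, whose RNA was hybridised on cDNA arrays together with pooled wild-type RNA from the matching organ of male animals aged 18 weeks, with 20 µg of RNA for each labelling. The pool held 4 animals by the list of animals and 6 by the protocol. The paper describes heterozygous Dll1tm1Gos/+ mice on the C3HeB/FeJ background, in which a lacZ insertion disrupts 1 allele in every cell, but the labels name neither allele nor strain, and the series and platform cited in the paper are others. Whether both describe the same animals is therefore uncertain. Each mouse had 2 arrays per organ with the dyes Cy3 and Cy5 exchanged, except for thymus of mouse 2, which had 1 array, so that 31 arrays were analysed (8 of brain, liver and spleen and 7 of thymus). The mice carry the same numbers, 1 to 4, in all organs.

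Values are log2 ratios taken as mutant over pool, so that a value below 0 stands for less RNA in the mutant. This direction is likely but not settled. It rests on the order of the channels in the labels and on the ratios in the paper being mutant against wild type, whereas the 2 arrays of a mouse correlated between -0.19 and 0.13 over all rows (median -0.02, 15 pairs). The extreme values, which were left out, had a positive sign wherever Cy5 labelled the mutant (16 of 16 arrays) and a negative one wherever Cy3 did (15 of 15). As mutant over pool this places Cy3 at its floor on every array, and as Cy5 over Cy3 it places the pool there, so that neither reading breaks the pattern. If the ratios were pool over mutant, every sign below would turn. Gene names are inferred as well, because the probe table had to be displaced by 11 rows against the values. At this displacement the rows of the same gene had a mean correlation of 0.0377 over 3734 pairs, against 0.0070 at the numbers as listed and 0.0158 at the best other of 601 displacements, so that agreement between the 3 rows of Cd74 is no independent support. An array held 12693 to 20649 values (median 20312), and the 2 arrays of spleen mouse 1 lacked a value in 39.0% and 26.2% of rows. Signal over background was not known, a ratio against a pool gives no level of a gene in an organ, and the organ labels could therefore not be checked against markers. In whole organs, fewer cells of a type and less RNA per cell cannot be told apart.

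MHC class II molecules are pairs of an alpha and a beta chain that present peptides from endocytosed protein to CD4+ T cells. B cells, dendritic cells, macrophages and thymic epithelium make them, and their genes share promoter elements, the X and Y boxes, that bind the factors which recruit the transactivator CIITA. MHC class I molecules consist of a heavy chain with beta-2 microglobulin and present peptides from the cytosol to CD8+ T cells. Almost all nucleated cells make them, and interferons raise both classes.

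The promoters of H2-Eb1, H2-K1 and B2m are shown because they carry the elements by which the classes are known. They come from RefSeq on the build GRCm38.p6, reach from 250 bases before to 50 bases after the start of transcription, and have the matched elements in capitals. The table of promoters held 8 of the 10 listed genes, without Cd74 and H2-Ab1. The build is that of the C57BL/6J strain, not of the mice studied. In H2-Eb1 (chr17:34305617-34305916, plus strand) the capitals mark an X box followed by a Y box. In H2-K1 (chr17:34000298-34000597, minus strand, the first of 2 starts) they mark a kappa B element before the start. Just after the start they mark the Y box letters on the opposite strand. In B2m (chr2:122147437-122147736, plus strand) they mark an interferon element.
H2-Eb1: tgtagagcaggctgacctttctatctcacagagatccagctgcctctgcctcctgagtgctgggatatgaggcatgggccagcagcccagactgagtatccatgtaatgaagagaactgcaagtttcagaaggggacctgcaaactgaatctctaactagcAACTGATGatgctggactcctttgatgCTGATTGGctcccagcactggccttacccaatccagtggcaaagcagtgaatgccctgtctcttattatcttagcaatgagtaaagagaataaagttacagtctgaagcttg
H2-K1: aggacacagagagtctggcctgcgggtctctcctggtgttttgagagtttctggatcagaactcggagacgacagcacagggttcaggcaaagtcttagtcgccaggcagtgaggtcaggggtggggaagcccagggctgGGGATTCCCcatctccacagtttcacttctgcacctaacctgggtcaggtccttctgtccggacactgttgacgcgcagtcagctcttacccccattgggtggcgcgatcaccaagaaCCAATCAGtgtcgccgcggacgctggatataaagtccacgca
B2m: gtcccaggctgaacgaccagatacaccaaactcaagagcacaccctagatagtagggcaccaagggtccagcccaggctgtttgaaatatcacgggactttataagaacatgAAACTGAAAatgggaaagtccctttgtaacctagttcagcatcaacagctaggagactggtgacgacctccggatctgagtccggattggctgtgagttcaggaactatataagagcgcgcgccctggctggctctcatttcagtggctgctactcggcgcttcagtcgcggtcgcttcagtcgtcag

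The letters searched on both strands were CTGATTGG for the Y box, AACNGATG for the X box, GGGANTCCC for the kappa B element and AAANNGAAA for the interferon element, where N is any base. The matches did not overlap each other. The Y box letters were in 6 of the 8 promoters (H2-Aa, H2-D1, H2-Eb1, H2-K1, H2-T23 and Tap1) and in 4.10% of all 32851 promoters of the same length. The X box letters were in H2-Eb1 alone of the 8, and in 2.32% of all. The kappa B element was in H2-K1 and H2-D1 and in 0.767% of all promoters, and the interferon element was in B2m and H2-T23 and in 10.6% of all. These counts take the first start of each gene, at which H2-DMa had none of the elements, while the window of its second start held the interferon element on the opposite strand. These matches are descriptions of the letters.

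In spleen, all class II rows had less RNA in the mutant mice than in the pool. The mean ratios of the 6 rows lay between -0.96 and -0.58, and each row was below 0 in 4 of 4 mice. Of the class I rows with a value in 4 mice, that of B2m was below 0 in 4 of 4 mice and that of Tap1 was not. Over all 9090 rows with a value in 4 spleens, 13.9% were below 0 in every mouse. The share above 0 in every mouse was 12.3%, with no member row among them. The genes were chosen by their place in the pathway and on measured ratios already known, those of Cd74 in spleen and of H2-T23 in liver. The ratios of both organs are therefore a description without a test, and nothing is read from this count.

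Cd74 encodes the invariant chain, which fills the class II groove until peptides are loaded. The first row of Cd74 in spleen had log2 ratios of -0.08, -0.54, -0.95 and -1.26 in mice 1 to 4 (mean -0.71 ± 0.51, SD, n = 4). The second row had -1.09, -0.69, -0.95 and -1.10 (mean -0.96 ± 0.19), which is 0.516 of the pool on a linear scale. The third row had -0.79, -0.42, -0.49 and -1.93 (mean -0.91 ± 0.70). Mouse 4 was the lowest in each row, while mouse 1 was the highest in the first row only. Among the 9090 rows with 4 mice, 0.693% had a lower mean than the second row, and 7.88% had a smaller SD.

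H2-Eb1 encodes the beta chain of the I-E molecule. In spleen its ratios were -0.66, -1.18, -0.56 and -1.12 in mice 1 to 4 (mean -0.88 ± 0.32), so that mice 2 and 4 were the lowest. H2-Ab1, the beta chain of I-A, had -0.56, -0.73, -0.18 and -1.004 (mean -0.62 ± 0.34). H2-DMa encodes a chain of the H2-DM molecule, which exchanges the last fragment of the invariant chain for peptide. Its ratios were -0.73, -0.51, -0.34 and -0.73 (mean -0.58 ± 0.19), or 0.669 of the pool. In these 3 genes, as against the first row of Cd74, mouse 3 was the nearest to 0, and mouse 4 was the lowest or nearly so. The ranges of the mice overlapped between any pair of the 6 rows, so the order of the means is within their spread.

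B2m encodes beta-2 microglobulin, the light chain of all class I molecules. In spleen its ratios were -0.999, -0.89, -0.84 and -0.88 in mice 1 to 4 (mean -0.90 ± 0.07, 0.535 of the pool). As means of 2 arrays the mice were close together, and 0.407% of the 9090 rows had a smaller SD. This holds for arrays that were not centred. The median of all rows in spleen was 0.30 in mouse 1 and 0.017 to 0.045 in the others. When each array was centred on its median, the mean of B2m was -1.03. The 2 arrays of a mouse lay further apart. With the mutant RNA in Cy5 they had -1.56, -0.41, -0.51 and -0.27 in mice 1 to 4. With it in Cy3 they had -0.44, -1.36, -1.16 and -1.50. Tap1, a subunit of the transporter that brings peptides to class I molecules, had 0.07, -0.41, 0.02 and -1.29 (mean -0.40 ± 0.63). Only mice 2 and 4 were clearly below 0, and mouse 4 carried most of the mean.

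H2-K1 encodes a classical class I heavy chain. Its spleen ratios were -0.11, 0.17 and 0.74 in mice 2, 3 and 4 (mean 0.26 ± 0.43, n = 3), so that its highest mouse was the one with the lowest ratio of Tap1. H2-T23 encodes the heavy chain of Qa-1, a non-classical molecule read by receptors of natural killer cells. Its first row had spleen values of 2.13 and 1.11 in mice 2 and 4, and its second row had -1.16 in mouse 1. The 2 rows of H2-T23 lie next to each other in the table and were rarely measured, with 20 and 13 kept values on the 31 arrays, whereas the other members had 29 to 31. Class I heavy chain genes are near-identical in places, so a cDNA spot of one can also bind the RNA of others, and the values of H2-K1 and H2-T23 are uncertain to that extent.

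**Figure D1:**
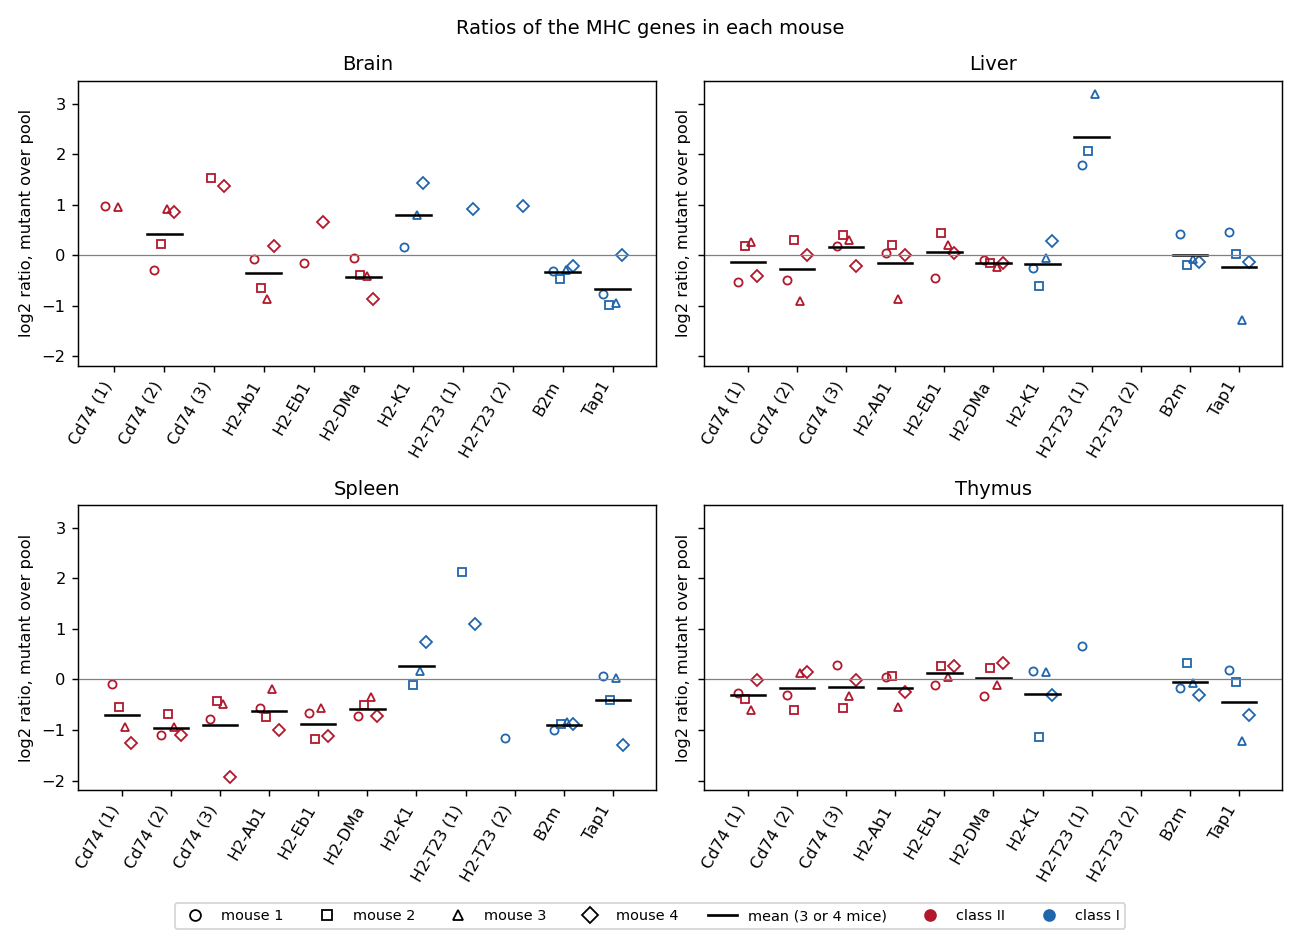
Log2 ratio of mutant over pool (vertical axis) of the 11 rows of the MHC genes in brain, liver, spleen and thymus, with 1 symbol per mouse, class II in red and class I in blue, and a black bar for the mean where 3 or 4 mice had a value. In spleen the 6 class II rows and B2m lie below 0 in 4 of 4 mice, and in liver the first row of H2-T23 stands at 1.79 to 3.19 in 3 mice.

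The 2 dye orientations differed in spleen. With the mutant RNA in Cy3 the mean ratios of the 6 class II rows were between -1.40 and -0.95, and with it in Cy5 they were between -0.59 and -0.04. Each of the 6 rows was below 0 on average in both orientations, and each was lower with the mutant RNA in Cy3. H2-Ab1 had -1.19 and -0.04, and the first row of Cd74 had -1.34 and -0.07, so that for these 2 rows almost all of the ratio came from 1 orientation. B2m had -1.12 in Cy3 and -0.69 in Cy5. Tap1 had -1.14 and 0.33, and H2-K1 had 0.44 and 0.32. The median of all rows was 0.08 and 0.12. The part of the dye in these ratios was not tested. If the ratios are read as Cy5 over Cy3 instead, 8 of the 9 member rows measured in at least 3 spleens change sign, and the second row of Cd74 moves from -0.96 to 0.44.

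**Figure D2:**
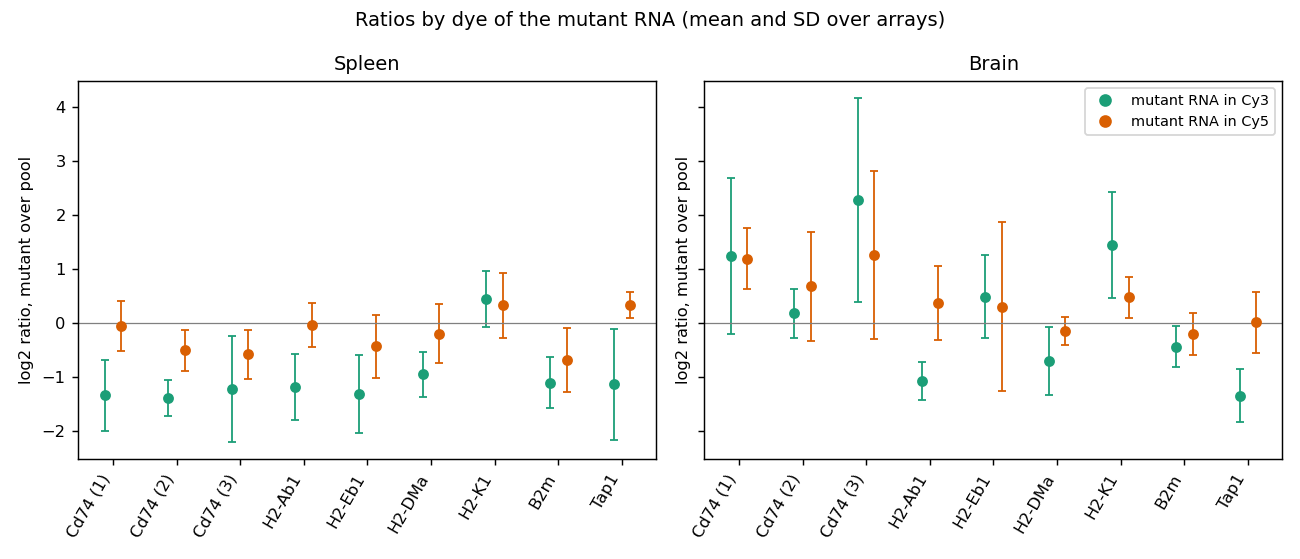
Log2 ratio of mutant over pool (vertical axis, mean and SD over the arrays) of 9 rows of the MHC genes in spleen and brain, with the mutant RNA in Cy3 in green and in Cy5 in orange. In spleen the class II rows are lower with the mutant RNA in Cy3, as H2-Ab1 at -1.19 against -0.04, and in brain Tap1 is at -1.36 against 0.01.

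In brain no row of the array passed the limma test at an adjusted p of 0.05 (0% of 19102 rows, 2234 rows or 11.7% at an unadjusted p under 0.05). Of the member rows, 6 had a value in at least 3 mice and could be tested. Tap1 had the ratios -0.77, -0.98, -0.94 and -0.003 in mice 1 to 4 (mean -0.67 ± 0.46, limma adjusted p = 0.420), and mouse 4 stood apart from the other 3. H2-K1 had 0.17, 0.79 and 1.42 in mice 1, 3 and 4 (mean 0.79 ± 0.63, limma adjusted p = 0.420), above 0 in 3 of 3 mice. These 2 rows had an unadjusted p under 0.05, and they had opposite signs. With a spread shared by the 4 organs, 0.356% of all rows passed in brain, with no member among them. In spleen 0.893% of all rows passed, and no member is read against that fit for the reason given above. The fit with a shared spread counts the organs of a mouse as independent.

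B2m in brain had -0.31, -0.48, -0.30 and -0.21 (mean -0.33 ± 0.11, limma adjusted p = 0.449). H2-DMa had -0.06, -0.39, -0.41 and -0.87 (mean -0.43 ± 0.33, limma adjusted p = 0.425). Both were below 0 in 4 of 4 mice, as was Tap1, which makes 3 of the 5 member rows with a value in 4 mice, where 17.6% of all 13895 such rows were. None of these 5 was above 0 in 4 mice, against 10.6% of all. H2-Ab1 had a mean of -0.35 ± 0.49 (limma adjusted p = 0.514), with mouse 4 above 0.

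Cd74 in brain was above 0 in most measurements. The second row had -0.30, 0.22, 0.91 and 0.86 in mice 1 to 4 (mean 0.42 ± 0.57, limma adjusted p = 0.484). The first row had 0.96 and 0.95 in mice 1 and 3, and the third had 1.52 and 1.37 in mice 2 and 4, too few mice for the test. Mouse 1 was thus below 0 in one row and above it in another. The arrays behind the third row lay far apart. With the mutant RNA in Cy5 and Cy3 they had -0.43 and 3.47 in mouse 2 and 2.64 and 0.10 in mouse 4. Those of the first row had 1.59 and 0.34 in mouse 1 and 0.79 and 1.12 in mouse 3. H2-Eb1 had -0.16 in mouse 1 and 0.66 in mouse 4, and H2-T23 had 0.92 and 0.97 in mouse 4 only, in its 2 rows. The H2-T23 arrays had opposite signs, with 2.18 in Cy5 and -0.34 in Cy3 in the first row. In the second row they had 2.92 and -0.98. Of the markers of other cells that can carry class II, some were also above 0 in brain. Of 6 microglia markers 2 had a row, Trem2 with 0.85 ± 0.53 (n = 4) and Aif1 with 0.70 ± 0.12 (n = 3). Of the 5 B cell markers measured in at least 3 brains 4 were above 0 (median 0.42). The 5 of dendritic cells and macrophages had a median of -0.15, with 3 below 0. Among all genes measured in at least 3 brains, 49.1% were below 0. Markers of thymic epithelium had a median of 0.58 in brain, those of neurons 0.23, those of hepatocytes 0.17 and those of T cells -0.24. The part of any of these markers in the ratios of Cd74 was not tested. The dye orientations differed here too. With the mutant RNA in Cy3 and Cy5, Tap1 had -1.36 and 0.01, H2-Ab1 had -1.07 and 0.37, and H2-K1 had 1.44 and 0.47, while the median of all rows was 0.07 in both.

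In thymus no row of the array passed either (0% of 20185 rows, 631 rows or 3.13% at an unadjusted p under 0.05), and the 9 member rows tested had limma adjusted p from 0.860 to 0.965. The class II means lay between -0.32 and 0.12. The first row of Cd74 had -0.26, -0.39, -0.61 and -0.005 in mice 1 to 4 (mean -0.32 ± 0.25) and was the only one of the 9 below 0 in 4 of 4 mice, against 6.92% of all 18227 rows. None was above 0 in 4 mice, against 6.16% of all. Its other 2 rows had means of -0.16 ± 0.36 and -0.15 ± 0.38. H2-Eb1, at 0.12 ± 0.19, was above 0 in 3 of 4 mice. Tap1 was the lowest class I row, with 0.19, -0.04, -1.22 and -0.70 (mean -0.44 ± 0.64). B2m had -0.06 ± 0.28, and H2-K1 had -0.28 ± 0.61, with mouse 2 at -1.13. H2-T23 had a single value, 0.66 in mouse 1 (first row). The values of mouse 2 come from its lone array.

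In liver the class II rows were near 0, with means between -0.28 and 0.16. H2-DMa was the only member row below 0 in 4 of 4 mice, with -0.10, -0.16, -0.23 and -0.15 (mean -0.16 ± 0.05), where 5.65% of all 17884 rows were. None was above 0 in 4 mice, against 7.44% of all. Of all rows, 0% passed the limma test in liver and in spleen (4.49% and 10.7% at an unadjusted p under 0.05). The second row of Cd74 had -0.49, 0.29, -0.91 and 0.003 (mean -0.28 ± 0.53), so the mice lay on both sides of 0. B2m had 0.42, -0.20, -0.07 and -0.14 (mean 0.004 ± 0.28), H2-K1 had a mean of -0.17 ± 0.37, and Tap1 had -0.23 ± 0.74. The first row of H2-T23 had 1.79, 2.06 and 3.19 in mice 1, 2 and 3 (mean 2.35 ± 0.74, n = 3), or 5.09 times the pool. Both arrays of each of these mice were above 0, the lowest at 1.22. Mouse 4 had a single array, at -0.06, and did not enter the mean. The neighbouring second row had 1 kept value in liver, 1.11 in mouse 1.

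Across organs, the ratio of Cd74 taken as mutant over pool was lowest in spleen. Its second row had means of -0.96 ± 0.19 in spleen, -0.28 ± 0.53 in liver, -0.16 ± 0.36 in thymus and 0.42 ± 0.57 in brain. Read as Cy5 over Cy3 the order changes, with spleen the highest at 0.44, brain at 0.25, liver at 0.07 and thymus at -0.06. Taken as mutant over pool, liver and thymus differed in this row by less than their spread. The 4 spleens of this row were all below the lowest thymus (-0.60) and the lowest brain (-0.30), while 1 liver, at -0.91, lay among them. In the first row of Cd74 the spleens of mice 1 and 2, at -0.08 and -0.54, lay above the lowest thymus (-0.61). In the third row the spleens of mice 2 and 3, at -0.42 and -0.49, lay above the lowest thymus (-0.57). B2m had -0.90 ± 0.07 in spleen, -0.33 ± 0.11 in brain, -0.06 ± 0.28 in thymus and 0.004 ± 0.28 in liver, and its 4 spleens did not overlap with any other organ. H2-K1 had its highest mean in brain (0.79) and its lowest in thymus (-0.28). These are ratios and not levels, and organ differences that involve spleen or liver were not tested.

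Brain and thymus are the 2 organs whose member values were not known when the genes were chosen, and they were compared with limma. No row of the array passed (0% of 18889 rows, 2016 rows or 10.7% at an unadjusted p under 0.05). The largest difference among the members was that of H2-K1, higher in brain by 1.08 on the log2 scale (limma adjusted p = 0.457). The second row of Cd74 differed by 0.58 and H2-DMa by -0.47 (limma adjusted p = 0.512 for both). B2m (-0.27), Tap1 (-0.23) and H2-Ab1 (-0.19) had limma adjusted p of 0.635, 0.809 and 0.812. For H2-K1, mouse 2 had no value in brain and entered in thymus alone, at -1.13 from its lone array. With the mouse as a block, H2-K1 was higher in brain by 0.79 (limma adjusted p = 0.625).

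The classes were set side by side by the median over the genes of each class in a mouse. In spleen the class II median was -0.66, -0.64, -0.45 and -1.06 in mice 1 to 4 (mean -0.70 ± 0.26). The class I median was -0.999, -0.26, 0.02 and -0.07 (mean -0.33 ± 0.46). Class II was thus below class I in mice 2, 3 and 4 and above it in mouse 1, with a mean difference of -0.38 ± 0.55 (n = 4), which was 0.12 ± 0.44 when read as Cy5 over Cy3. It was -0.61 without mouse 1 and -0.17 without mouse 4. In mouse 1 the class I median rested on 3 genes, without H2-K1. Without H2-T23, a choice made after the values were seen, the mean difference was -0.27 ± 0.14. In the other organs the class difference had a mean of 0.10 ± 0.22 in brain, -0.09 ± 0.40 in liver and 0.07 ± 0.33 in thymus, in each case with 2 mice on either side of 0.

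**Figure D3:**
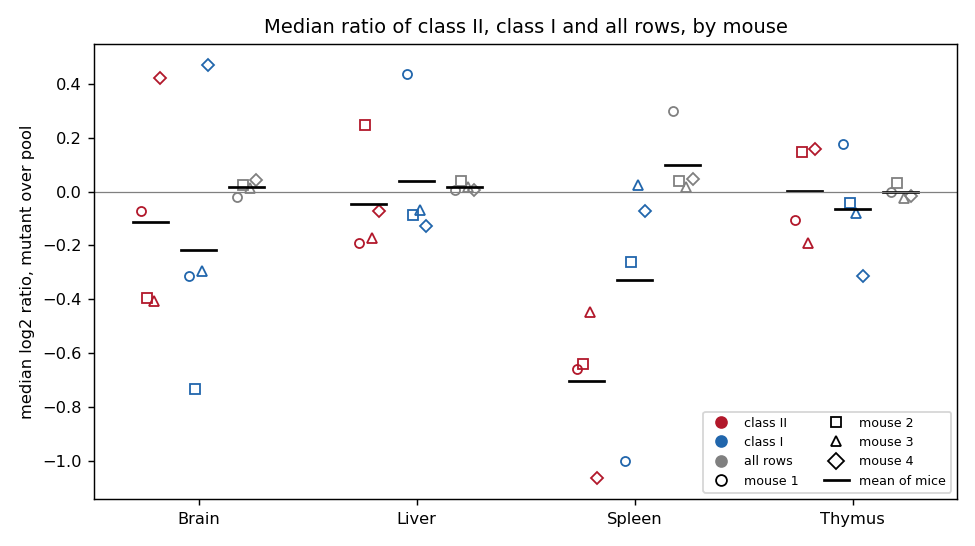
Median log2 ratio of mutant over pool (vertical axis) over the class II genes (red), the class I genes (blue) and all rows (grey) of each mouse in 4 organs, with 1 symbol per mouse and a black bar for the mean of the 4 mice. In spleen the class II median lies between -1.06 and -0.45, and that of all rows between 0.02 and 0.30.

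Other genes of antigen presentation were taken as lists. Of 14 further class II pathway genes, 8 had a row, and in spleen 5 of the 8 had a mean ratio below 0 and 3 above it (median -0.23). Over all 8687 genes measured in at least 3 spleens the median was 0.06, and 43.9% were below 0. Ctss, which encodes cathepsin S, the protease that trims the invariant chain, was the lowest of the antigen presentation genes with 4 mice in spleen, with -0.99, -1.20, -0.92 and -0.80 (mean -0.98 ± 0.17). H2-Oa, a chain of the H2-O molecule that restrains H2-DM, was the highest with 0.48 ± 1.39, of which mouse 1 had 2.52 and the other 3 had -0.57 to 0.10. Rfx5, a subunit of the factor that binds the X box, had 0.02 ± 0.37.

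Of 30 further class I pathway genes, 13 had a row and 11 a value in at least 3 spleens, of which 9 were below 0 and 2 above (median -0.38). Psme2, a subunit of the proteasome activator PA28, had -1.43, -0.89, -0.37 and -0.83 in spleen (mean -0.88 ± 0.43). Canx, the chaperone calnexin, had -0.47 ± 0.16. Psme2, Canx and Rfx5 were picked after their values were seen. Of 22 interferon genes, 14 were measured in at least 3 spleens, with 8 below 0 and 6 above (median -0.02). In brain, liver and thymus the further class II genes had medians of 0.08, -0.07 and 0.02, and the further class I genes had 0.07, -0.01 and -0.02. The lowest and highest of them with 4 mice were Calr (-0.34 ± 0.19) and Lgmn (0.32 ± 0.39) in brain, Calr (-0.35 ± 0.17) and Tapbp (0.26 ± 0.88) in liver, and H2-Q10 (-0.73 ± 1.01) and Psmb9 (0.61 ± 0.91) in thymus. Calr encodes calreticulin, a chaperone of class I assembly, and was below 0 in 4 of 4 brains and livers. Of all genes with 4 mice, 17.1% in brain and 5.85% in liver were below 0 in every mouse.

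Markers of cells that carry class II were read in the same spleens. Of 12 B cell markers, 6 had a row and 5 a value in at least 3 mice, of which 4 were below 0. Ms4a1 (CD20) had -1.08, -1.82, -1.26 and -1.20 (mean -1.34 ± 0.33). Cd37 had -0.82 ± 0.28, Cd22 had -0.71 ± 0.05 (n = 3) and Cd79b had -0.41 ± 0.30, while Vpreb3 had 0.22 ± 0.48. The median over the B cell markers was -0.71, and it lay between -0.73 and -0.63 in the 4 mice. The 5 measured markers of dendritic cells and macrophages, out of 12, had a median of -0.14, with Lyz2 at -1.15 ± 0.11 and Flt3 at 0.32 ± 0.36. The 7 measured T cell markers, out of 10, had a median of 0.01. The part of the B cell and macrophage markers in the class II ratios was not tested.

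**Figure D4:**
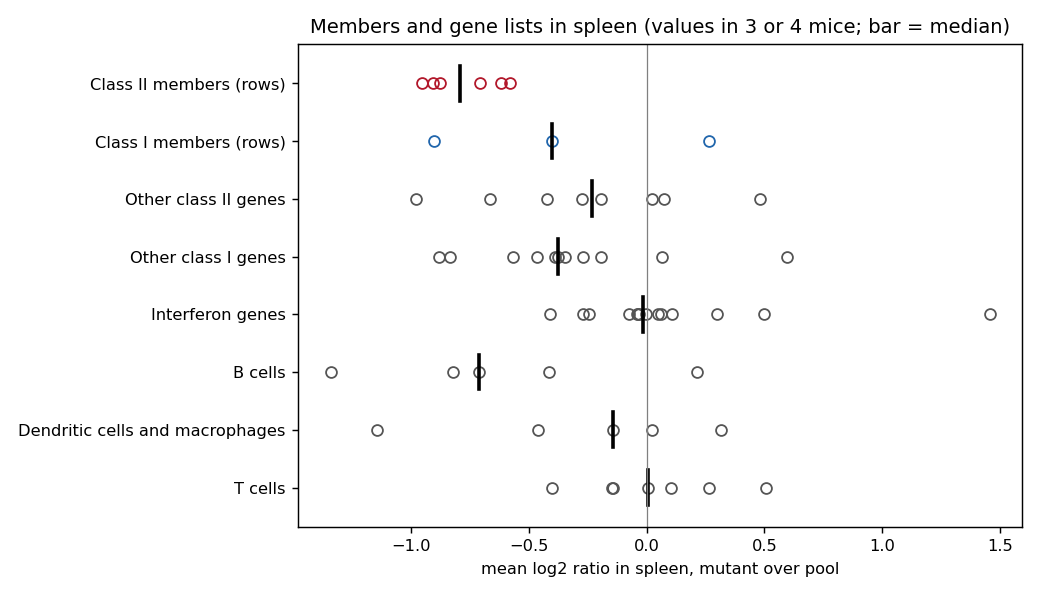
Mean log2 ratio of mutant over pool in spleen (horizontal axis) of the class II and class I rows and of the genes of 6 lists measured in 3 or 4 mice, with 1 circle per row or gene and a bar for the median. The class II rows lie between -0.96 and -0.58, the B cell markers have a median of -0.71, and the T cell markers have one of 0.01.

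Of the 3949 genes with a value at all 16 points (4 mice in 4 organs), those whose ratios ran most like the second row of Cd74 were Cdc6 (Pearson r = 0.94), Rac2 (0.81), Tm6sf2 (0.78), Lime1 (0.77) and Pou2af1 (0.77). The points share the pools, the mice and the arrays. When the mean of each organ was removed, r was 0.92 for Cdc6, 0.75 for Lime1, 0.45 for Tm6sf2, 0.43 for Rac2 and 0.18 for Pou2af1. The 2 rows of Cdc6 disagreed, with r of 0.34 over 16 points and 0.87 over 14. Among the members, H2-Eb1 ran most like Cd74 (r = 0.75 over 14 points), and the other 6 had r between -0.05 and 0.37. With the organ means removed, r was 0.41 for H2-Eb1 and between -0.30 and 0.32 for the other 6.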

How the data were processed

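The authors' arrays were read with a GenePix instrument, and the deposited value of a spot is a log2 ratio. The base is that of the paper's ratios. The normalization and the filter on weak spots are not given in the sources used here, and no normalization was added. Values beyond 12 in size (9 to 294 per array, 1 repeated value on each, the smallest 15.9) were dropped, and the largest kept was 9.61. A mouse was 1 replicate, as the mean of its 2 arrays in rows measured on both. For thymus mouse 2, with 1 array, the dye effect averaged over the other 3 mice was taken off row by row. Rows with at least 3 mice were tested against 0 with limma 3.58.1 in R 4.3.3 (empirical Bayes), adjusted by Benjamini-Hochberg over all rows of the organ at 0.05, and brain and thymus were compared by the same method. The pool is 1 control sample per organ, so the spread of wild-type mice is outside the test. The fit was tested on simulated data. Names in the last 1040 rows are uncertain, and no member lies there. The members and gene lists were chosen with earlier results of these data known. The genes named are all members, the lowest and highest further antigen presentation gene of each organ, and the 5 genes most like Cd74, beside markers and genes said to be picked by value. Alternatives left out each mouse, centred or scaled the arrays, kept extreme or lone values, changed the fit, the reading of the dyes or the naming, and blocked on the mouse. Python 3.11.15 with pandas 2.3.3 and numpy 2.4.6 served for the rest. Precision is limited by the number of mice and by the 1 pool of each organ.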

Additional observations from a re-analysis of the deposited data

Results flagged for a closer look

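Of 43 groups of 4 mice checked for a mouse far from the others, 1 was set aside, and chance marks about 1 in 20 groups. In liver the median over the class I genes was 0.44 in mouse 1 against -0.09, -0.07 and -0.13 in mice 2, 3 and 4, and the gap to the nearest mouse was 0.8985 of the whole range. In mouse 1 that median lay between B2m (0.42) and Tap1 (0.45), with H2-T23 at 1.79 and H2-K1 at -0.26.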

How the results depend on the processing

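No row passed in any organ or between brain and thymus under any fit to a single organ or to this pair, including those without 1 mouse (lowest and highest count 0). With a spread shared by the 4 organs, 68 rows passed in brain (no member, limma adjusted p from 0.182 to 0.378). In spleen 175 passed, where the members are not read against the fit, and 0 passed in liver and thymus. The mouse as a block between brain and thymus, the same animals by the labels, also gave 0 rows, with 1467 at an unadjusted p under 0.05 against 2016, and same-numbered deviations correlated between -0.10 and 0.01. Class II less class I had the following ranges when 1 mouse was left out: 0.03 to 0.18 in brain, -0.23 to 0.09 in liver, -0.61 to -0.17 in spleen and -0.07 to 0.18 in thymus. Without mouse 1 the spleen value was the lowest of its range. With names at the numbers as listed the class difference kept its sign in brain (0.43) and thymus (0.04). It changed sign in spleen (0.78) and liver (0.14). With a displacement of 12 places it was -0.15 in brain, 0.14 in spleen, 0.23 in liver and -0.23 in thymus, all of the opposite sign. At 10 places it changed sign in brain (-0.03) and thymus (-0.24). It also changed sign when read as Cy5 over Cy3 in spleen (0.12), with lone values kept in brain (-0.05), and from the Cy3-labelled mutant RNA alone in liver (0.005). Without 1 mouse, 0 of 35 member values in spleen and 0 of 23 in brain changed sign, against 5 of 39 in liver and 3 of 36 in thymus. Centring the arrays moved 1 of 9 member means in spleen by more than its SD, that of B2m from -0.90 to -1.03. It changed the sign of 1 of 10 in liver. Read as Cy5 over Cy3, 8 of 9 member means changed sign in spleen, 5 of 6 in brain, 7 of 10 in liver and 4 of 9 in thymus. The cause of these changes was not tested. The naming and the direction are the main limits.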
